A study of Rattus norvegicus with 4 samples.

Results

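Expression of 35 inflammation genes was compared in rat liver with steatohepatitis: cytokines, chemokines, adhesion molecules, the enzymes they induce, subunits and inhibitors of the transcription factor NF-kB, and the receptors that switch it on. The list named 36 genes. Each of the 35 matched 1 probe, by its symbol or by its current name under the Entrez or transcript identifier, among the 20174 probes of the array. Tnfaip3, an ubiquitin-editing inhibitor of NF-kB signalling, matched no probe by these rules and was not analysed here. The matching rule used names alone and no measured value, but the list was chosen with earlier results of these data known.

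Liver RNA came from Sprague-Dawley rats that were either wild type or transgenic for a dominant negative form of Cx32, the main gap junction protein of hepatocytes. All 4 groups received the same treatment: diethylnitrosamine, a liver carcinogen, injected into the peritoneum when the rats were 10 weeks old, and then a methionine-choline deficient diet for 12 weeks. That diet causes fat storage, inflammation and scarring in rodent liver. Within each genotype 1 group also received luteolin, a plant flavonoid, and 1 did not. No group on a normal diet or without carcinogen was analysed here, and the values below describe differences between diseased livers. Each group had 1 single-colour array, and no ratio has a replicate check. The arrays are called Tg (transgenic), TgL (transgenic with luteolin), Wt (wild type) and WtL (wild type with luteolin), and sets of 4 values are in that order. The sources used here do not give the promoter that drives the transgene, the sex, the amount of luteolin, or how many rats an array stands for. In whole liver, fewer cells of a type and less RNA per cell cannot be told apart.

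NF-kB is a dimer of Rel family proteins held in the cytoplasm by inhibitor proteins such as that encoded by Nfkbia. Signals from Toll-like, interleukin 1 and tumour necrosis factor receptors trigger the breakdown of the inhibitor, and the freed dimer enters the nucleus and switches on cytokine and chemokine genes, and Nfkbia itself. In fatty liver disease the resident macrophages (Kupffer cells), incoming monocytes, endothelial cells and stressed hepatocytes all use this pathway, and the chemokines they release draw further leukocytes into the tissue.

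Of the 35 genes, 31 had a signal above background on Tg, 30 on TgL, 31 on Wt and 30 on WtL. These counts were 85.7% to 88.6% of the members, beside 72.6% to 78.7% of all 20020 genes. A signal counted as above background where the deposited background-subtracted column was not blank. By that rule 30 members were above background on all 4 arrays, 2 on 1 array and 3 on none. Many were close to background: 17 of 35 (48.6%) had a raw intensity of at least 2 times the background constant on all 4 arrays. Of all genes 33.3% did, so the members were less often dim than the genes on the array at large. Hepatocyte markers, including albumin (Alb), were above background on all 4 arrays for the 6 of 8 that had a probe.

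Levels below are log2 intensities after background correction with an added offset of 50 units and quantile normalization, and ratios are differences of these values between 2 arrays. The offset pulls ratios of dim probes toward 0. Levels of different probes are not comparable with each other.

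**Figure D1:**
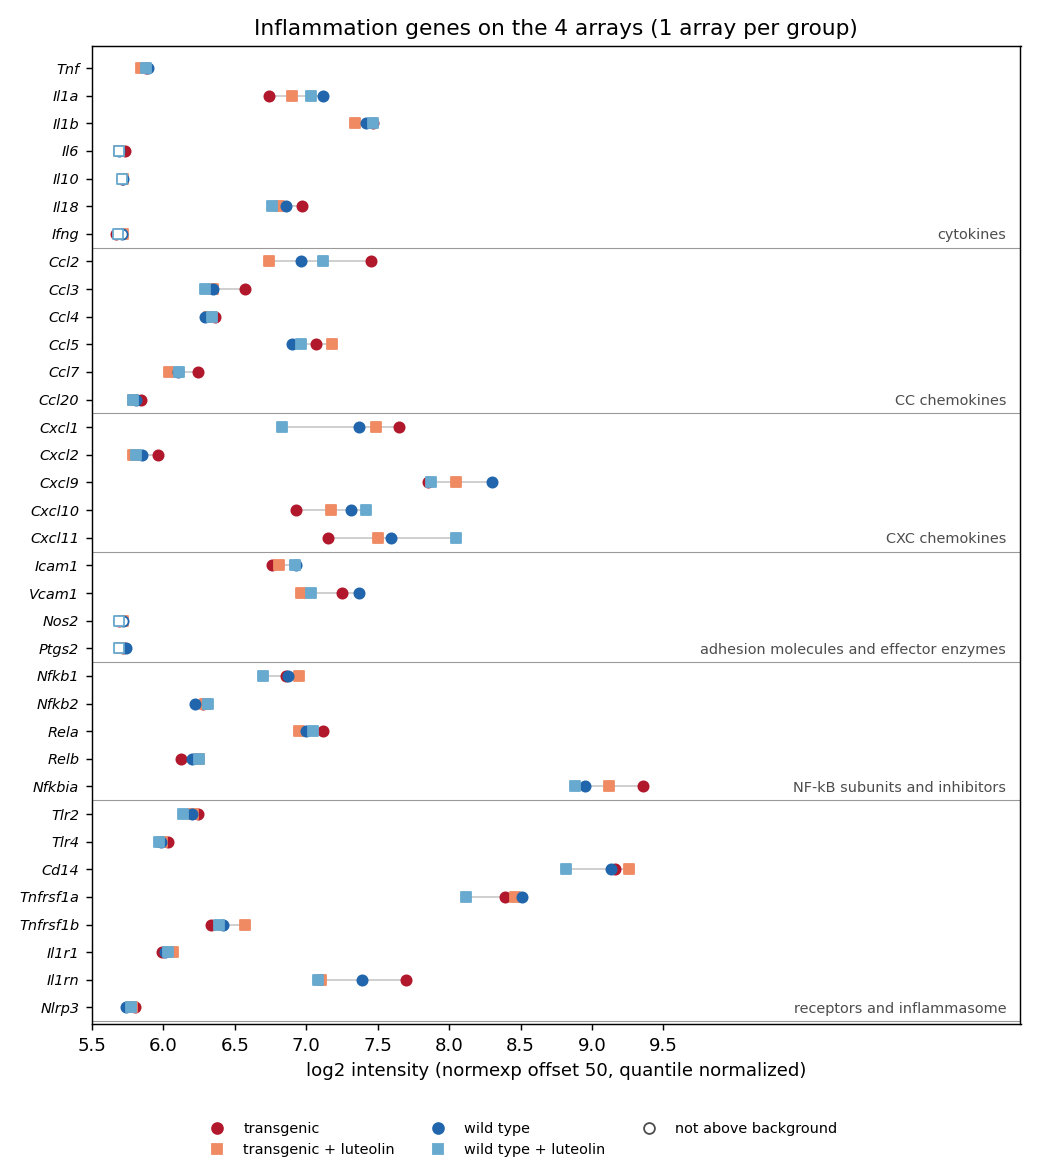
Log2 intensity of the 35 genes (x axis) by gene (y axis), 1 point per array; red is transgenic, blue wild type, circles are without and squares with luteolin, and open symbols mark arrays where the gene was not above background. Il10, Ifng and Nos2 are open on all 4 arrays, while the points of Cxcl11, Cxcl1 and Ccl2 are spread over 0.90, 0.82 and 0.71 log2 units.

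Most of the inflammation genes differed little between any arrays compared. With luteolin in transgenic rats, Ccl2 and Il1rn were lower by 1.5-fold or more and none of the 30 compared members was higher by that much, beside 1.03% of 14331 genes lower and 0.488% higher. In wild-type rats 0 of 30 members differed by 1.5-fold with luteolin, beside 0.297% of 14797 genes higher and 0.378% lower. Between transgenic and wild type without luteolin the count was also 0 of 30, beside 0.686% of 14724 genes higher in transgenic and 0.387% lower. With luteolin in both, Cxcl1 alone was higher in transgenic and 0 members were lower, beside 0.431% of 14385 genes higher and 0.445% lower. No member reached 2-fold in any of these 4 ratios. Among all genes 0.0907% were higher and 0.167% lower by 2-fold with luteolin in transgenic rats, and 0.0676% and 0.108% in wild type. For transgenic against wild type the shares were 0.129% and 0.0475% without luteolin, and 0.104% and 0.0626% with it.

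The median log2 ratio of the 30 members above background on all arrays was -0.03 for luteolin in transgenic rats and -0.02 in wild type, and 0.04 and 0.01 for transgenic against wild type without and with luteolin. Over all 14128 genes above background on all arrays these medians were 0.01, 0.00, -0.01 and 0.00. Members with a ratio below 0 numbered 17, 18, 12 and 13 of 30 in that order of comparisons, beside 45.6%, 49.6%, 52.9% and 48.6% of all genes. The luteolin ratios of the 2 genotypes share no array. In both genotypes 11 of 30 members were lower with luteolin, beside 25.1% of all genes, and 6 were higher in both, beside 29.8%. The other 13 had opposite signs, as did 44.8% of all genes. Both luteolin arrays lay below both others for 6 members (Tnf, Il18, Ccl20, Cxcl2, Vcam1 and Il1rn), beside 17.0% of genes. They lay above both others for Nfkb2, Relb and Il1r1, beside 20.4%. On the authors' globally normalized scale Tnf, Nfkb2 and Relb lost this separation. Il18, Ccl20, Cxcl2, Vcam1, Il1rn and Il1r1 kept it there. The genotype ratios of the 2 diets share no array either. In both diets 11 members were higher in transgenic rats, beside 25.3% of genes, 6 were lower, beside 27.0%, and 13 had opposite signs, beside 47.3%. Further, 8 members lay higher on both transgenic arrays (Ccl3, Ccl5, Cxcl1, Nfkbia, Tlr2, Tlr4, Cd14 and Nlrp3, beside 15.4% of genes). Another 4 lay lower on both (Il1a, Cxcl10, Cxcl11 and Icam1, beside 17.4%). On the authors' scale the 8 did not keep this separation and the 4 did. There the median genotype ratio of all genes with luteolin was -0.42.

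The array on which a member was highest was most often the transgenic one without luteolin: 14 of 30 members (46.7%), beside 26.0% of all genes. The 14 were Il18, Ccl2, Ccl3, Ccl4, Ccl7, Ccl20, Cxcl1, Cxcl2, Rela, Nfkbia, Tlr2, Tlr4, Il1rn and Nlrp3. This count was made after the values were seen, and was 14 to 17 under 4 other scalings, with 25.9% to 31.6% of all genes. Of the 14, Ccl3, Ccl4, Ccl7, Ccl20, Cxcl2, Tlr2, Tlr4 and Nlrp3 did not reach 2 times background on every array. Ccl4, Ccl20, Tlr2, Tlr4 and Nlrp3 spread over 0.10 log2 units or less, so their highest array carries little. TgL held the highest value for 6 members, beside 26.5% of genes, and Wt for 6, beside 18.2%. Under median centring TgL held 3, beside 16.5%, and Wt 3, beside 12.7%, and on the authors' scale TgL held 1, beside 2.66%, and Wt 4, beside 11.7%. WtL was highest for 4 of 30 members (Il1b, Cxcl10, Cxcl11 and Nfkb2), beside 29.3% of all genes, but 11 on the authors' own scale, beside 59.8%.

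**Figure D2:**
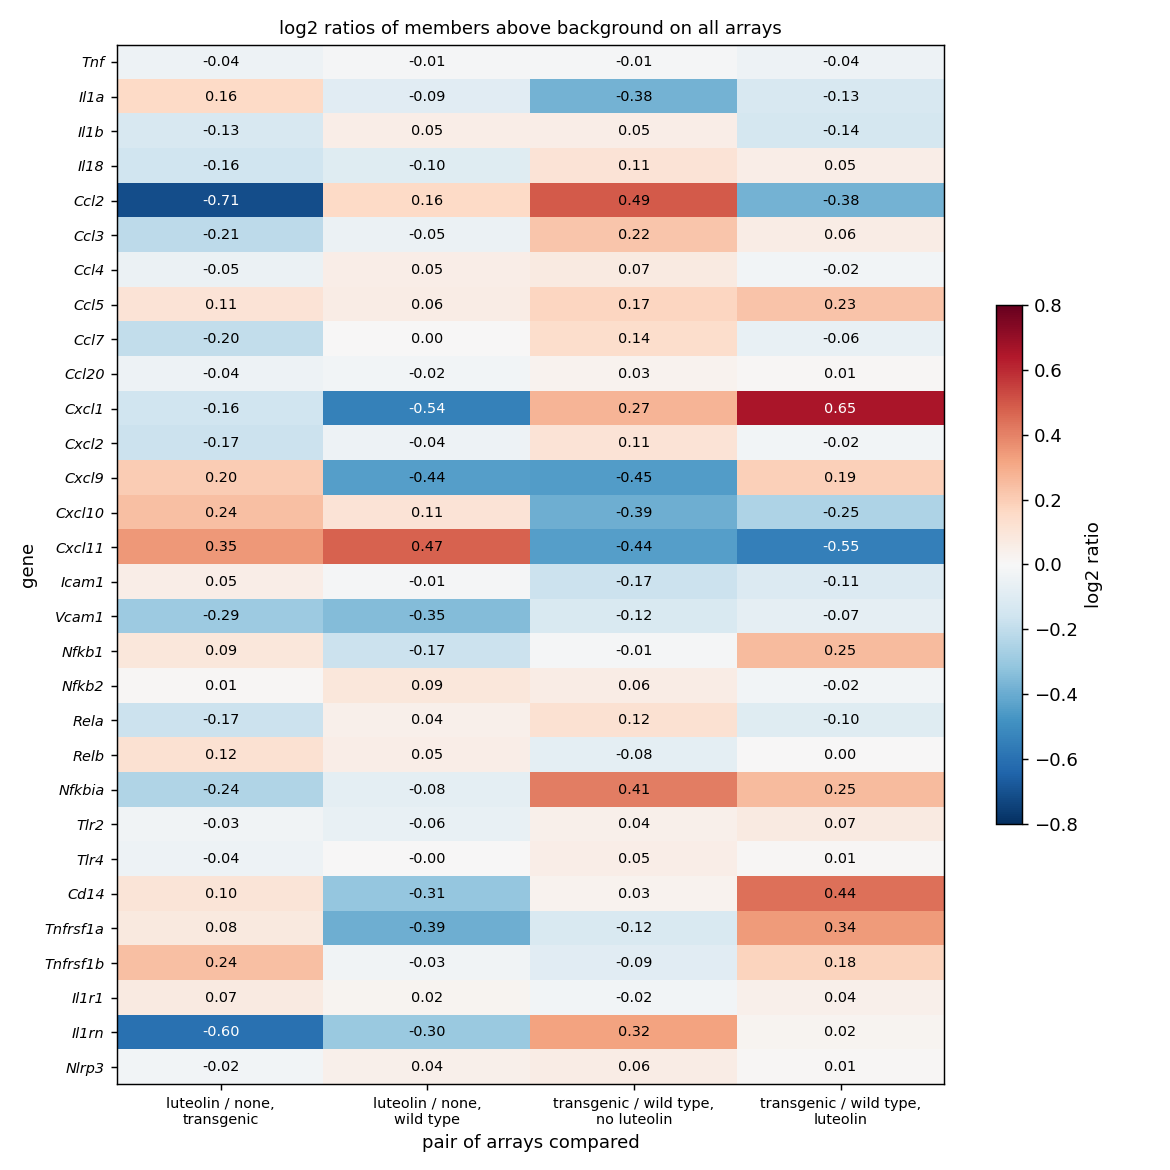
Log2 ratios (colour and printed value) of the 30 members above background on all arrays (rows) in the 4 pairs of arrays compared (columns). Red is higher and blue lower on the array named first; Ccl2 at -0.71 and Il1rn at -0.60 in the first column and Cxcl1 at 0.65 in the last are the 3 values past 1.5-fold.

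Among the cytokines, Tnf, Il6, Il10 and Ifng were near or below the background limit. Tnf, which encodes tumour necrosis factor, had log2 levels of 5.88, 5.84, 5.89 and 5.88 on Tg, TgL, Wt and WtL. These stand for 8.39, 4.48, 6.33 and 7.37 intensity units above background, and its luteolin ratios of -0.04 and -0.01 rest on those few units. Il6, the main inducer of the acute phase response, was above background on Tg alone, by 1.52 units. Il10, an anti-inflammatory cytokine, and Ifng, the interferon of T and NK cells, were above background on no array.

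The interleukin 1 family was measurable. Il1b had log2 levels of 7.47, 7.34, 7.42 and 7.47 on Tg, TgL, Wt and WtL. The lowest was transgenic with luteolin, and the whole spread was 0.13. Il1a, an alarmin that acts on the same receptor, lies next to Il1b on chromosome 3, with no protein-coding gene between them. It was at 6.74, 6.90, 7.12 and 7.03 on the same arrays, lower on both transgenic arrays than on both wild-type arrays, with genotype ratios of -0.38 without and -0.13 with luteolin. Il18, which the inflammasome processes, was at 6.97, 6.81, 6.86 and 6.76, highest on Tg. Its luteolin ratios were -0.16 in transgenic and -0.10 in wild-type rats, the latter 0.00 with each array centred on its median.

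Il1rn, which encodes the secreted antagonist that blocks the interleukin 1 receptor, was lower with luteolin in both genotypes. Its log2 levels were 7.70 on Tg, 7.10 on TgL, 7.39 on Wt and 7.08 on WtL. Both luteolin arrays lay below both others, and Tg was highest. The luteolin ratio was -0.60 in transgenic rats (1.52-fold lower, the 137th lowest of 14331 genes) and -0.30 in wild type (1.23-fold lower, the 412th lowest of 14797). Without luteolin it was 1.25-fold higher in transgenic than in wild type (log2 ratio 0.32). All 3 ratios had the same sign under the 4 other scalings tried.

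The CC chemokines attract monocytes and T cells. Without luteolin all 6 were higher in transgenic than wild-type rats, with ratios from 0.03 to 0.49. Of all genes 52.9% were lower in that comparison. The lowest of the 6 ratios, that of Ccl20, turned to -0.02 under median centring. With luteolin 3 of the 6 were higher in transgenic rats and 3 lower. Ccl3, Ccl4, Ccl7 and Ccl20 did not reach 2 times background on every array. Ccl2, the main chemoattractant of monocytes, had the widest spread of the 6: 7.45 on Tg, 6.74 on TgL, 6.96 on Wt and 7.12 on WtL. Luteolin went with a 1.64-fold lower level in transgenic rats (log2 ratio -0.71, the 86th lowest of 14331 genes) and a 1.12-fold higher level in wild type (0.16). Transgenic rats were higher than wild type without luteolin (0.49) and lower with it (-0.38). Ccl2 kept these opposite signs under the 4 other scalings, and no test of the difference between the genotypes was possible with 1 array each.

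Ccl7, a second monocyte attractant that is the direct neighbour of Ccl2 on chromosome 10, was at 6.24, 6.04, 6.10 and 6.11 on Tg, TgL, Wt and WtL. It too was highest on Tg and lowest on TgL, at 12.1 to 28.2 units above background. Ccl3 and Ccl4, another adjacent pair that attracts monocytes and T cells, were both highest on Tg. Ccl3 was at 6.57, 6.35, 6.35 and 6.29, so Tg stood above 3 arrays that lay within 0.06 of each other. Ccl4 was at 6.36, 6.32, 6.29 and 6.34, a spread of 0.07. Ccl5, a product of T cells and platelets, was at 7.07, 7.18, 6.90 and 6.96, higher on both transgenic arrays than on both wild-type arrays, with ratios of 0.17 without luteolin and 0.23 with it. The second of these turned to -0.04 on the authors' scale. Ccl20, the ligand of Ccr6, was at 5.84, 5.79, 5.81 and 5.79, under 7 units above background on every array.

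The CXC chemokines lie in 2 neighbourhoods of chromosome 14 with different patterns. Cxcl1 and Cxcl2, direct neighbours, attract neutrophils. Cxcl1 was at 7.65 on Tg, 7.49 on TgL, 7.37 on Wt and 6.83 on WtL. Its level was lower with luteolin in both genotypes, by 1.45-fold in wild type (log2 ratio -0.54, the 67th lowest of 14797 genes) and by 1.12-fold in transgenic rats (-0.16). With luteolin it was 1.57-fold higher in transgenic than wild type (0.65, the 44th highest of 14385 genes), and without it 1.21-fold higher (0.27). WtL stood below the 3 others. Cxcl2 was at 5.96, 5.79, 5.85 and 5.81, highest on Tg, at 12.2 units above background there and 2.69 to 4.83 on the other 3.

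Cxcl9, Cxcl10 and Cxcl11, which interferon induces and which attract T cells through the receptor Cxcr3, are neighbours on that chromosome with no other protein-coding gene among them. All 3 were lowest on Tg, Cxcl9 by 0.02 only. Cxcl10 was at 6.93 on Tg, 7.17 on TgL, 7.31 on Wt and 7.42 on WtL. Cxcl11 was at 7.15, 7.50, 7.59 and 8.05 in the same order. For both genes the 2 transgenic arrays lay below the 2 wild-type arrays, and luteolin went with a higher level in each genotype. Cxcl11 was 1.27-fold higher with luteolin in transgenic rats (log2 ratio 0.35) and 1.38-fold higher in wild type (0.47, the 106th highest of 14797 genes). Transgenic rats had 1.35-fold less of it than wild type without luteolin (-0.44) and 1.47-fold less with it (-0.55, the 77th lowest of 14385). The ratios of Cxcl10 were 0.24 and 0.11 for luteolin and -0.39 and -0.25 for genotype. These signs held for both genes under the 4 other scalings. Cxcl9 was at 7.85, 8.05, 8.30 and 7.87, with Wt highest. Its genotype ratio without luteolin was -0.45 and its luteolin ratio in wild type -0.44, while its luteolin ratio in transgenic rats was 0.20 and turned to -0.05 under median centring and -0.02 on the authors' scale.

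**Figure D3:**
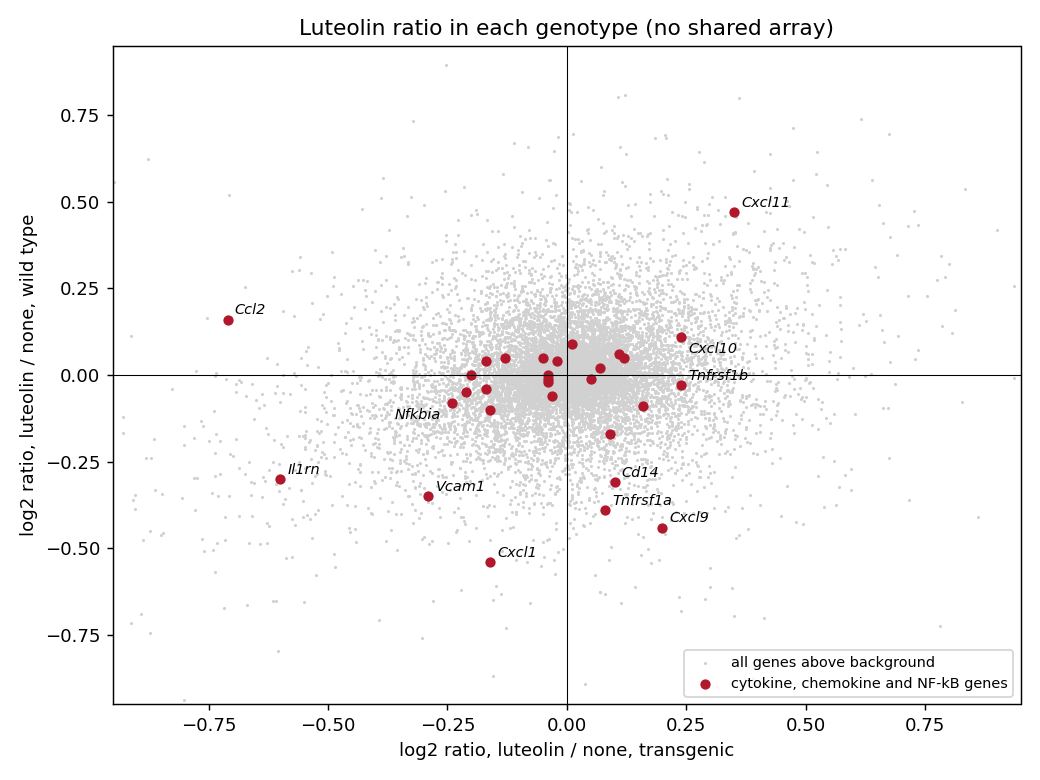
Log2 ratio of luteolin against none in transgenic rats (x axis) and in wild-type rats (y axis), with the inflammation genes in red and all genes above background in grey within the axes shown. Cxcl11 lies at upper right (0.35 and 0.47), Il1rn (-0.60 and -0.30), Vcam1 and Cxcl1 at lower left, and Ccl2 at upper left (-0.71 and 0.16).

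NF-kB binds a known DNA motif of 10 bases, the kB consensus, and promoters of members that hold it and differed between arrays are shown so that their sequences can be set beside the levels. Of the 35 genes, 28 had a promoter in the RefSeq table (build GRCr8), from 250 bases before to 50 after the gene start. The others, Ccl2, Ccl3, Ccl4, Ccl5, Il10, Nos2 and Relb, had none there and were not searched. The kB consensus was found on either strand in 13 of these 28 (46.4%), beside 7.51% of all 33469 promoters of that length. The 13 were Ccl7, Ccl20, Cxcl1, Cxcl2, Cxcl10, Cxcl11, Il1r1, Il6, Nfkb1, Nfkb2, Nfkbia, Tlr2 and Vcam1. The list was built around NF-kB and genes it switches on, so this share is not a result of these arrays. In the 5 below, written 5′ to 3′ on the strand of the gene, capitals mark the match, or 2 overlapping matches of the motif where the run is longer than 10 bases.
Cxcl1: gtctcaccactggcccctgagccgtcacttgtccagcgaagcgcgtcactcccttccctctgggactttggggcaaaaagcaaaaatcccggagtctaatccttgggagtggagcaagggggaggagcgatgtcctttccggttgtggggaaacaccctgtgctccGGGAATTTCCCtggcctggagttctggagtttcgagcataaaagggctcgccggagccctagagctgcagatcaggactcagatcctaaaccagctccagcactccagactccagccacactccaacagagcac
Nfkbia: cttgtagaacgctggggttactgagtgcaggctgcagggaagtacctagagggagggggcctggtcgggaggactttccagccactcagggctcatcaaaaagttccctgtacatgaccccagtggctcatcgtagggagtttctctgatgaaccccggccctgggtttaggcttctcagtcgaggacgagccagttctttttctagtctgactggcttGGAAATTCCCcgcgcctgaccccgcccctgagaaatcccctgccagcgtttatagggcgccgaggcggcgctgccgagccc
Vcam1: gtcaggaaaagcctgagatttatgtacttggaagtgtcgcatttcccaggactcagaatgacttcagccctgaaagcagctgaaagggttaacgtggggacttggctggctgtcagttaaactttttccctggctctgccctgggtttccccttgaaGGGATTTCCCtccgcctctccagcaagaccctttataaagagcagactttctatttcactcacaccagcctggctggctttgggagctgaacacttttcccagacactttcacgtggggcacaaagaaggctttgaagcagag
Cxcl10: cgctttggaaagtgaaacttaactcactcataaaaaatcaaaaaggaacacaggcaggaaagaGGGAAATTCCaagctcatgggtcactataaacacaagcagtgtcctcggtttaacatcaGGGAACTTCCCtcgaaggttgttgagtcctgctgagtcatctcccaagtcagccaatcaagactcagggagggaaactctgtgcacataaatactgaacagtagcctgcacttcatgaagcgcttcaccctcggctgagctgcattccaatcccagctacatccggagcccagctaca
Cxcl11: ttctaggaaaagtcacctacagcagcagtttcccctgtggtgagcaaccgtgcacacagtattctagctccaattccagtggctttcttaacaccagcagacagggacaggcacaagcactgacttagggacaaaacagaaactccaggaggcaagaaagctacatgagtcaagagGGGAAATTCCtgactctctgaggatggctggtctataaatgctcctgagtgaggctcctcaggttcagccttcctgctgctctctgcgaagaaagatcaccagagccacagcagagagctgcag

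These lie at chr14:17479272-17479571 (minus strand), chr6:78597023-78597322 (minus), chr2:206742734-206743033 (minus), chr14:15988816-15989115 (plus) and chr14:15973478-15973777 (plus). The match began 84 bases before the gene start in Cxcl1, 31 in Nfkbia, 93 in Vcam1 and 74 in Cxcl11, and 187 and 128 bases before it in Cxcl10. The 10 letters of the first match in Cxcl10 were those of the match in Cxcl11, GGGAAATTCC. Of the genes with the motif, Cxcl1, Nfkbia and Vcam1 did not share the order of arrays that Cxcl10 and Cxcl11 showed. A match is a string of letters and does not show binding.

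Of the adhesion molecules, which hold leukocytes on the vessel wall, Vcam1 was lower with luteolin in both genotypes. It was at 7.25 on Tg, 6.96 on TgL, 7.37 on Wt and 7.03 on WtL. Both luteolin arrays lay below both others, with ratios of -0.29 (1.22-fold lower) in transgenic rats and -0.35 (1.27-fold lower, the 283rd lowest of 14797 genes) in wild type. Icam1 was at 6.76, 6.81, 6.93 and 6.92, with luteolin ratios of 0.05 and -0.01 and both transgenic arrays below both wild-type arrays. The inducible enzymes were at the background limit. Nos2, the inducible nitric oxide synthase, was above background on no array, and Ptgs2, the inducible cyclooxygenase, on Wt alone, by 1.29 units.

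Within NF-kB itself, the inhibitor gene was higher on Tg than on the other 3 arrays. Nfkbia, which NF-kB induces, was at 9.36 on Tg, 9.12 on TgL, 8.95 on Wt and 8.88 on WtL. Tg was 1.32-fold above wild type without luteolin (log2 ratio 0.41, the 241st highest of 14724 genes). The luteolin ratio was -0.24 in transgenic rats and -0.08 in wild type, the latter 0.19 under median centring and 0.12 on the authors' scale. Its genotype ratio with luteolin was 0.25, but -0.09 under median centring and -0.20 on the authors' scale. Rela, the transactivating subunit p65, was at 7.12, 6.95, 7.00 and 7.05, a spread of 0.17. Nfkb1, whose product is cut to the p50 subunit, was at 6.86, 6.95, 6.87 and 6.70, lowest on WtL. Nfkb2 and Relb, the pair of the alternative pathway, spread over 0.09 and 0.12.

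Among the receptors, Cd14, the co-receptor that passes bacterial lipopolysaccharide to Tlr4, was at 9.16, 9.26, 9.13 and 8.82 on Tg, TgL, Wt and WtL. Tnfrsf1a, the widely expressed receptor of tumour necrosis factor, was at 8.39, 8.46, 8.51 and 8.12. For both WtL was lowest, with luteolin ratios in wild type of -0.31 and -0.39, and -0.13 and -0.29 on the authors' scale, where Tnfrsf1a was lowest on TgL. Tnfrsf1b, the second such receptor, found mainly on immune and endothelial cells, was at 6.33, 6.57, 6.42 and 6.39, highest on TgL. Tlr2, the receptor for bacterial lipoproteins, was at 6.24, 6.21, 6.20 and 6.14, and Tlr4 at 6.03, 5.99, 5.98 and 5.97. Il1r1, the signalling receptor of interleukin 1, was at 5.99, 6.07, 6.01 and 6.03. Nlrp3, the inflammasome sensor, was at 5.80, 5.78, 5.74 and 5.77. The last 4 spread over 0.10 or less, at 1.22 to 28.2 units above background.

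An additive limma model over all 4 arrays, with genotype and luteolin as terms and 1 residual degree of freedom per gene, was the test the design allows. It asks whether the mean difference over both genotypes, or both diets, exceeds a spread. For each gene that spread draws on how far its 2 ratios differ and on the variance of all genes tested. An SE is thus not the measured spread of 1 gene alone. No member and no gene (0.00% of 14128) passed a Benjamini-Hochberg adjusted p of 0.05 for luteolin or for genotype. At an unadjusted limma p under 0.05 there were 3 of 30 members for luteolin, beside 8.59% of all genes, so that count was near the share. For genotype there were 5 of 30, beside 7.21%.

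For luteolin the 3 were Il1rn, Vcam1 and Cxcl11. The coefficient of Il1rn was -0.45 (SE 0.10, limma adjusted p = 0.562). That of Vcam1 was -0.32 (SE 0.04, limma adjusted p = 0.562), and that of Cxcl11 was 0.41 (SE 0.05, limma adjusted p = 0.562). For genotype, Cxcl11 had a coefficient of -0.49 (SE 0.05, limma adjusted p = 0.686) and Cxcl10 one of -0.32 (SE 0.06, limma adjusted p = 0.686). Cxcl1 (0.46), Nfkbia (0.33) and Ccl5 (0.20) were on the transgenic side, with the same adjusted p of 0.686 in limma. Ccl2 had a luteolin coefficient of -0.28 (SE 0.26, limma adjusted p = 0.865), and its ratios in the 2 genotypes had opposite signs. With an intensity trend in the variance model 2.27% of genes passed for luteolin, Il1rn among them (limma adjusted p = 0.0433), and 1.05% for genotype, Cxcl11 among them (limma adjusted p = 0.0472). Over genes at 2 times background or more 1.38% passed for genotype, again with Cxcl11 (limma adjusted p = 0.0343), and 2.26% for luteolin, with 0 of 17 members and Il1rn at a limma adjusted p = 0.0503.

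The size of these differences changed with the offset and with the scaling between arrays. The luteolin ratio of Cxcl11 in wild type was 0.47 in the main setting, 0.55 with an offset of 16 and 0.67 under median centring. On the authors' globally normalized intensities, which add no offset, Ccl2 read 99.1, 36.9, 58.2 and 78.3 units on Tg, TgL, Wt and WtL, a 2.69-fold difference with luteolin in transgenic rats. Il1rn read 127, 56.6, 91.6 and 74.6 units, 2.24-fold lower with luteolin in transgenic rats. Cxcl11 read 72.6, 85.8, 111 and 193 units, 1.73-fold higher with luteolin in wild type and 2.25-fold lower in transgenic than wild type with luteolin. The orders of the arrays for Ccl2 and Cxcl11 are those given above. That scale also moved the median of all genes, to -0.26 and 0.19 for luteolin in transgenic and wild-type rats, and to 0.02 and -0.42 for genotype without and with luteolin. Relative to those medians, 5 of 30 members were 1.5-fold or more lower with luteolin in transgenic rats (Ccl2, Ccl7, Ccl20, Cxcl2 and Il1rn), beside 8.66% of all genes. In wild type Cxcl11 and Nlrp3 were higher and Cxcl1 lower, beside 4.03% and 4.45%. Of these genes Ccl7, Ccl20, Cxcl2 and Nlrp3 did not reach 2 times background on any array. Nlrp3 was 1.22 units above background on Wt and 3.18 on WtL.

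**Figure D4:**
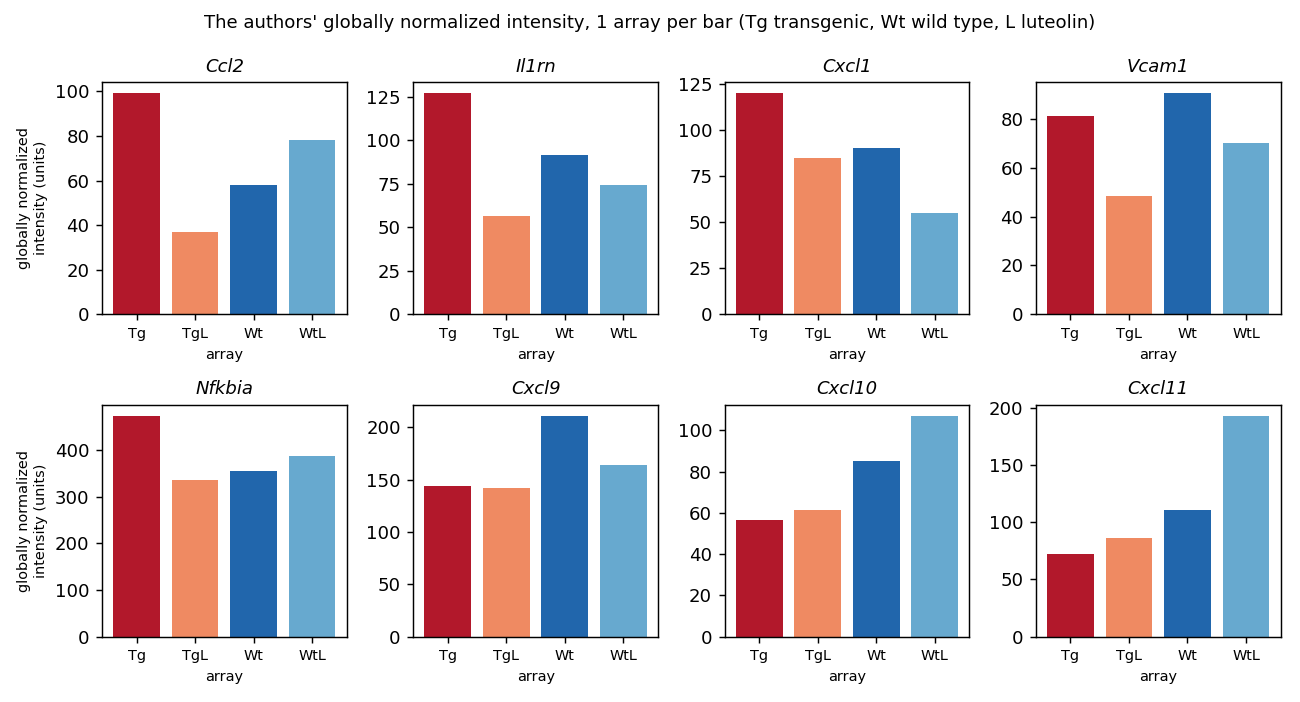
The authors' globally normalized intensity (y axis, linear units from 0) of 8 genes on the 4 arrays (x axis), 1 array per bar with no error bars because each group had 1 array. Ccl2 and Il1rn are highest on Tg (99.1 and 127 units), and Cxcl10 and Cxcl11 are highest on WtL (107 and 193 units).

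The wider pathway was read from 86 further genes: kinases and inhibitors of NF-kB, receptor adaptors, the inflammasome, cytokine receptors, other chemokines and their receptors, Toll-like receptors and endothelial adhesion. Of these 78 had a probe and 68 were above background on all arrays. Their median log2 ratio was -0.02 for luteolin in transgenic rats, 0.00 in wild type, and 0.03 and 0.02 for genotype without and with luteolin. In the limma model 0 of 68 passed the adjusted threshold for either term. At an unadjusted p under 0.05 there were 6 for luteolin, beside 8.59% of all genes, and 4 for genotype, beside 7.21%, so both were near those shares. At 1.5-fold, 0 of 69 differed with luteolin in wild type, beside 0.297% of genes higher and 0.378% lower. Between genotypes with luteolin 0 of 68 differed, beside 0.431% higher and 0.445% lower. With luteolin in transgenic rats 2 of 68 were lower and 0 higher, beside 1.03% and 0.488% of genes. Without luteolin 2 of 70 were higher and 0 lower in transgenic than wild type, beside 0.686% and 0.387%. In these last 2 comparisons the genes were Ccl21, a lymphoid chemokine that guides T cells and dendritic cells, and Cx3cl1, a membrane-bound chemokine for monocytes. The 2 comparisons share the Tg array, so 1 high value there enters both. Ccl21 was at 8.84, 7.67, 7.74 and 7.36 on Tg, TgL, Wt and WtL, and Cx3cl1 at 7.24, 6.54, 6.53 and 6.30. Both stood high on Tg. Ccl21 has near-identical copies in the rat, so its probe may read more than 1 gene.

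Markers of the cells that make or answer these signals also differed between the arrays. The 8 of 10 macrophage markers with a probe were above background on all 4 arrays, and their summed globally normalized intensity was 4150, 2060, 2770 and 2290 units on Tg, TgL, Wt and WtL. The monocyte and macrophage gene Lyz2 was at log2 levels of 11.74, 10.52, 10.79 and 9.92, and Cd68, a lysosomal marker of macrophages, at 9.65, 8.98, 9.04 and 8.98. Clec4f and Timd4, which mark resident Kupffer cells, were at 9.20, 9.44, 9.31 and 9.28 and at 6.12, 6.18, 6.17 and 6.14. Cd163, a scavenger receptor of macrophages, was at 6.60, 6.75, 6.68 and 6.80. These 3 were lowest on Tg, while Lyz2 and Cd68 were highest there. Stellate cell and myofibroblast markers summed to 3040, 971, 1420 and 1610 units, with Acta2 above background on no array, endothelial markers to 303, 223, 290 and 297, and cholangiocyte markers to 599, 284, 450 and 334. The sums of 7 neutrophil markers were 117, 75.5, 104 and 88.4, those of 9 T and NK cell markers 182, 135, 142 and 185, and those of 3 B cell markers 21.5, 16.4, 17.5 and 19.7, with Ms4a1 above background on no array. The sums for macrophage, stellate, endothelial, cholangiocyte, neutrophil and B cell markers were highest on Tg, where Ccl2, Il1rn and Cxcl1 were also highest. That for T and NK cell markers was highest on WtL, at 185 against 182 on Tg. Hepatocyte markers summed to 85300, 78000, 84300 and 101000 units. All sums are on the authors' scale, where 59.8% of all genes were highest on WtL, 25.9% on Tg and 2.66% on TgL. After quantile normalization the median log2 ratio of Tg to Wt was 0.13 for macrophage markers, with 5 higher and 3 lower. It was 0.57 for stellate, 0.02 for endothelial, 0.17 for cholangiocyte, 0.01 for neutrophil, 0.05 for T and NK and 0.04 for B cell markers. The part of these cells in the differences above was not tested.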

How the data were processed

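Per the labels' protocols, Cy5-labelled amplified RNA from liver was read on arrays with 1 colour. The deposited files gave, per the file headers, a raw intensity, a background-subtracted intensity and a globally normalized intensity for 20174 probes on each of 4 arrays, 1 per group. By comparison of these columns, the authors subtracted a constant of 37.5 to 39.8 intensity units from each array, leaving blanks close to it, and the globally normalized intensity was that times 1 factor per array, which set the median at 25.0. The deposited series table held the same intensities rounded to whole numbers (largest difference 0.500), so it is linear and not centred. The sources used here do not give a scanner, software or genome build. Median raw intensities were 48.0 to 54.4 units, so most probes are dim, and the number of arrays limits the precision.

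Raw intensities were corrected with limma's normexp method (limma 3.58.1, R 4.3.3) (offset 50), then log2 transformed and quantile normalized. The 2 spots flagged other than OK were left out. Probes were named through the RefSeq gene table (GRCr8) by transcript accession, Entrez identifier or symbol, and the brightest probe per gene was kept, which left 20020 genes. Ratios of 2 arrays use genes above background on both and have no test. The additive model used lmFit and eBayes with Benjamini-Hochberg adjustment over 14128 genes. It was run on simulated data with planted luteolin effects of 1 and 2 log2 units in brighter genes. Those are larger than the coefficient of any member, so that run does not cover effects of the size reported here. All 35 members are named, with full ratios for those at 1.5-fold or more and for Tnf, Il1b, Il6, Ccl2, Nfkbia, Nfkb1 and Rela. Pathway genes are named at 1.5-fold or more. Members, lists and the promoters shown were chosen with earlier results of these data known. Alternatives were median centring, an offset of 16, the authors' values, a stricter and no filter, the mean of probes and the subtraction of a running median over 101 neighbouring rows of the file.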

Additional observations from a re-analysis of the deposited data

Results flagged for a closer look

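With 1 array per group the difference between 2 ratios could not be tested, and 7 pairs of ratios are listed because each ratio was at least 0.1 (log2) in size and the pair had opposite signs. The 2 luteolin ratios and the 2 genotype ratios of a gene come from the same 4 values, so both kinds of pair give the same difference.

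Ccl2 was lower with luteolin in transgenic rats (-0.71) and higher in wild type (0.16), a difference of -0.87. Read by genotype, its ratio was 0.49 without luteolin and -0.38 with it, a difference of 0.87. Cxcl9 had luteolin ratios of 0.20 and -0.44, a difference of 0.64, and genotype ratios of -0.45 without and 0.19 with luteolin, a difference of -0.64. Its positive ratios turned to -0.05 and -0.08 under median centring and to -0.02 and -0.21 on the authors' scale. Cd14 had luteolin ratios of 0.10 in transgenic and -0.31 in wild-type rats, a difference of 0.41, but the first turned to -0.15 under median centring and -0.11 on the authors' scale. Rela had genotype ratios of 0.12 without and -0.10 with luteolin, a difference of 0.21. Tnfrsf1a had genotype ratios of -0.12 without and 0.34 with luteolin, a difference of -0.47, but under median centring both were positive (0.07 and 0.06) and on the authors' scale both were negative (-0.16 and -0.04).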

How the results depend on the processing

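No paired analysis was possible because each group had 1 array and the labels give no replicate numbers. For the same reason no array could be left out of a ratio. The members' median log2 ratio for luteolin in transgenic rats was -0.45 on the authors' values and 0.05 over the 17 members at 2 times background or more. For luteolin in wild type it was 0.01 under median centring and 0.10 on the authors' values, where the median of all genes was 0.19. For genotype without luteolin it was 0.22 on the authors' values, and with luteolin -0.05 under median centring and -0.38 on the authors' values, where the median of all genes was -0.42. All 4 main medians lie within 0.04 of 0, so their signs carry little.

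Members past 1.5-fold with luteolin in transgenic rats were 9 (all lower) on the authors' values, beside 18.5% of all genes, and 1 less the running median. In wild type they were 1 under median centring (Cxcl11, higher, beside 2.26% of genes), 1 with the offset of 16 (Cxcl1, lower, beside 0.694%) and 3 on the authors' values (2 higher, beside 9.31%, and 1 lower, beside 2.17%). For genotype without luteolin they were 2 under median centring (Ccl2 and Nfkbia, higher, beside 1.67%), 1 with the offset of 16 (Ccl2, higher, beside 1.41%) and 8 on the authors' values (5 higher, beside 7.79%, and 3 lower, beside 3.40%). With luteolin they were 2 with the offset of 16 (Cxcl1 higher, beside 0.764%, and Cxcl11 lower, beside 0.729%) and 10 on the authors' values (1 higher, beside 0.998%, and 9 lower, beside 29.9%). Under median centring the count stayed at 1, but the gene was Cxcl11, lower, in place of Cxcl1, beside 3.93% of genes. Members above background on all arrays fell from 30 to 17 at 2 times background, and all genes from 70.6% to 33.3%.

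In the additive model 1 member passed for luteolin when limma's prior followed intensity (Il1rn, limma adjusted p = 0.0433), and 1 for genotype (Cxcl11, limma adjusted p = 0.0472). Over probes at 2 times background or more 1 passed for genotype (Cxcl11, limma adjusted p = 0.0343). Over all its alternatives the adjusted p of Il1rn ran from 0.0433 to 1.00 and that of Cxcl11 from 0.0343 to 1.00 (limma). The cause of these changes was not tested. Using the mean of probes changed no value, since each member had 1 probe.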
